A study of Mus musculus with 4 samples.

Results

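Axin2, Rnf43, Znrf3 and Tcf7 are 4 genes of the Wnt signalling pathway, and their surroundings were examined in maps of acetylated lysine 27 on histone H3 (H3K27ac) from mouse liver. They were taken by name from the 10925 genes for which the deposited region tables list a transcription start. Every region within 100 kb of their starts was used, which gave 18 of the 11602 regions of sham liver and 9 of the 10170 regions of regenerating liver. The genes were chosen by their promoter state and region width in these same maps, so all values below are a description and carry no test. H3K27ac, a mark of active promoters and enhancers, was profiled by CUT&Tag, in which an antibody steers a transposase to the mark. The mice were wild type, of strain C57/BL6J. One group had 2 libraries from sham-operated animals, for which the labels give no time, while the design text names 0 h. The other had 2 libraries taken 12 h after 70% hepatectomy (PHx), the removal of most of the liver that starts its regrowth. Time since surgery and hepatectomy therefore cannot be told apart.

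In canonical Wnt signalling, a Wnt ligand binds a Frizzled receptor and an LRP co-receptor, which stops a destruction complex from degrading beta-catenin. Beta-catenin then joins TCF and LEF factors on DNA and switches on target genes, several of which dampen the pathway again. In liver, Wnt ligands from endothelial cells near the central vein keep the surrounding pericentral hepatocytes in their metabolic state. Axin2 is a scaffold of the destruction complex. Rnf43 and Znrf3 encode membrane ubiquitin ligases that remove Frizzled from the cell surface, and R-spondins acting through LGR receptors clear these ligases. Tcf7 encodes the DNA-binding factor TCF1, which is also known from T lymphocytes.

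Each group came as 1 list of merged regions on GRCm39 that holds no signal or counts, so the depth is unknown and no value has a replicate error. The labels do not say whether the 2 libraries of a group came from separate animals. The lists differed as a whole. The median region was 8153 bp wide in sham and 14551 bp after PHx, a ratio of 1.78, and of the 6459 genes with a region at the start in both groups 91.5% had the wider region after PHx. Wider regions at the 4 genes are to be read against that. A gene was called marked when a region reached within 1 kb of its most upstream listed start.

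By this measure the 4 genes fell into 3 classes. Axin2 and Tcf7 were marked after PHx only, a class that held 17.8% of all genes with a listed start. Znrf3 was marked in sham only, as were 8.19% of genes, and Rnf43 was marked in both, as were 59.1%. None of the 4 loci lacked acetylated regions in either group: sham regions came to 1384 bp from the Axin2 start and to 15414 bp from the Tcf7 start, and a PHx region to 3054 bp from the Znrf3 start.

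**Figure D1:**
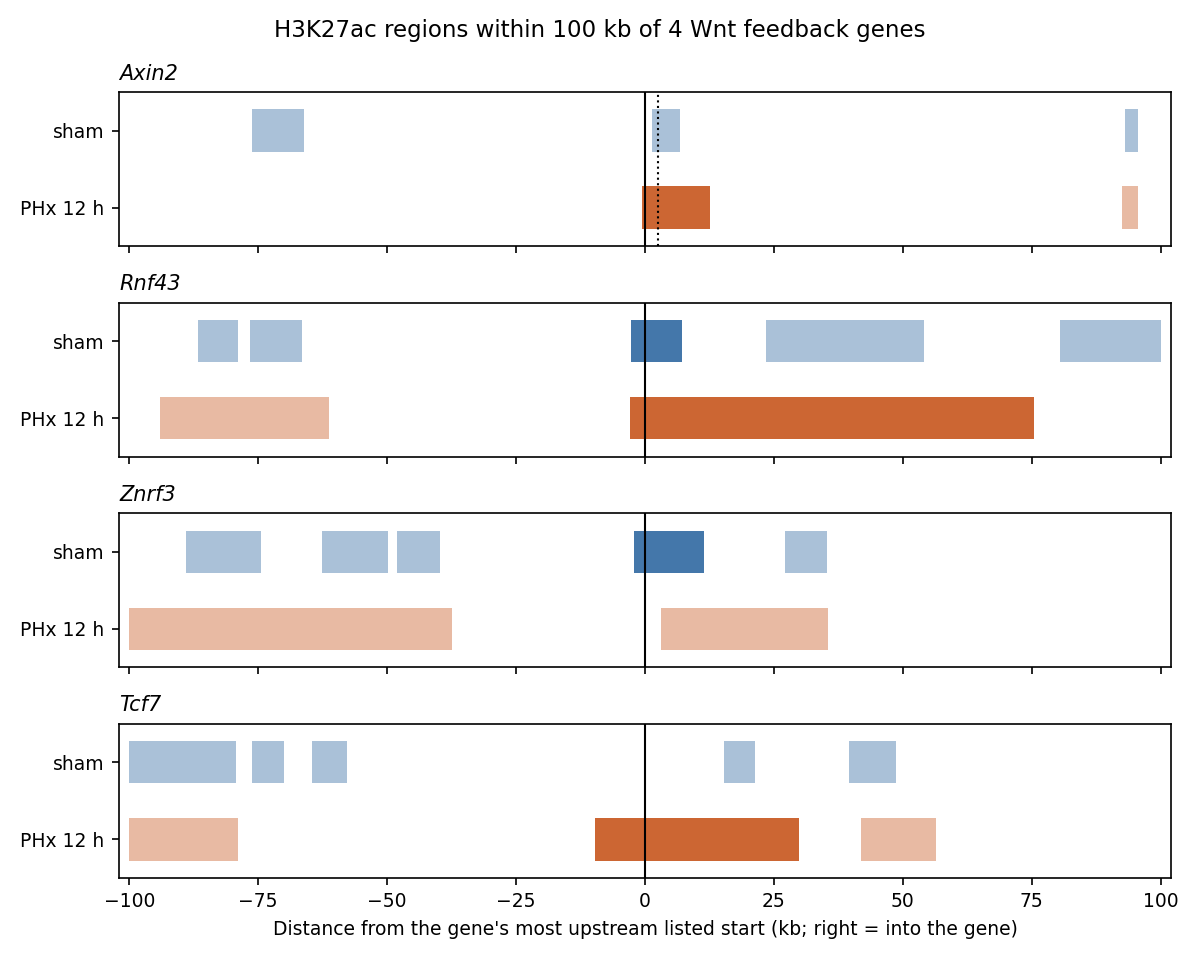
Regions of H3K27ac in sham (blue) and 12 h after PHx (orange) by distance in kb from the most upstream listed start of each gene (solid line; the dotted line is the other listed start of Axin2), oriented so that the gene runs to the right and clipped at 100 kb. Dark bars reach within 1 kb of the start, pale bars do not. Both groups have a region in or at every gene, and the dark PHx bar at Rnf43 spans the place of 2 sham bars.

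Axin2 lies on chromosome 11, plus strand. Its sham region ran from 108810038 to 108815438 and was 5401 bp wide, and its PHx region ran from 108808117 to 108821247 and was 13131 bp wide. The PHx region held the whole sham region, began 1921 bp before it and ended 5809 bp after it. Its width was thus 2.43 times that of the sham region. Both regions were built from 1 peak of each library.

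The tables list 2 starts for Axin2, and its class depended on which was used. The start of transcript XM_006532058.2 (108808654) is listed with the PHx region only, and that of NM_015732.4 (108811175), 2521 bp further into the gene, with the sham region only. The NM_015732.4 start lay inside the region of both groups. Axin2 was therefore marked in both by that start, and by the upstream start with a window of 3 kb. By any listed start 60.8% of all genes were marked in both. Of the 1947 genes marked after PHx only, 5.55% moved to that class when any listed start was allowed. Genes with a single listed start could not move, so this share does not show how rare such a move is. Among 1204 genes with several listed starts, 521 (43.3%) had starts that differed in class. A stretch of 67535 bp before the sham region held 1 further peak of sham library 1 and none of library 2, at a place the tables do not give.

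The Axin2 promoter is shown because it is the start that both groups covered. The RefSeq promoter table is of another build, GRCm38.p6, so no coordinate of it can be set against a region. Its Axin2 entry lies 2521 bp inside the gene, the same spacing as between the 2 listed starts. The 250 bases before it, chr11:108920099-108920348 on the plus strand, read as follows, with CG dinucleotides in capitals.
Axin2 promoter: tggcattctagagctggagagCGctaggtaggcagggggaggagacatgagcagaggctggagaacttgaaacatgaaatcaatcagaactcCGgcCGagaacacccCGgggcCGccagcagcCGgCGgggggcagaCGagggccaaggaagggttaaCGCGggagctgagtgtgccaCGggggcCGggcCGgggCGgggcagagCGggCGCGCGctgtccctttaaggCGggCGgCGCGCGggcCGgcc
This window had 24 CG dinucleotides, more than 88.0% of the 32851 windows of the table, and a G+C content of 69.2% against a median of 52.4%.

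Around Axin2 few other regions were found. On its 5′ side a sham region of 10036 bp lay at the long noncoding gene Gm36818, whose nearest PHx region was 65615 bp away. On the 3′ side an intron of Gm36876 carried narrow regions in both groups, 2529 bp in sham and 3082 bp after PHx. Within 100 kb, regions covered 17966 bp in sham and 16213 bp after PHx. That ratio of 0.902 was lower than for most genes, since 7.83% of genes had a smaller one. Within 50 kb, where the regions at Gm36818 and Gm36876 are left out, it turned to 2.43. That is the width ratio of the Axin2 regions given above, so it is no separate result.

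Rnf43, also on the plus strand, had a region at its start (87553913, transcript NM_172448.4) in both groups. The sham region ran from 87551255 to 87561045 and measured 9791 bp. The PHx region ran from 87551032 to 87629285 and measured 78254 bp, which is 7.99 times as wide. The PHx region began only 223 bp before the sham one, so the added length lay inside the gene and beyond its end. Among the 6459 genes marked in both groups the median ratio was 1.74, with quartiles of 1.24 and 2.81, and 164 genes had a ratio as high as that of Rnf43 or higher.

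The PHx region covered all of the Rnf43 gene body of 72453 bp and went 2920 bp past its end. In sham 52.1% of the gene body was covered, by the start region and by a separate region of 30597 bp (87577379 to 87607975) around the start of 1110028F11Rik, a noncoding gene inside Rnf43. These 2 sham regions stood 16333 bp apart and summed to 40388 bp, so the PHx region was 1.94 times as long as both together. It held 37866 bp that were in no sham region. The region was built from 1 peak of PHx library 1 and 4 peaks of PHx library 2. If peaks were joined by overlap, the 1 peak of library 1 bridged the 4 of library 2. The extent of each peak is not given, so the outer edges may come from either library. The PHx table gives the region to 1110028F11Rik and does not name Rnf43, as happened for 15.6% of the genes marked in both, which are named in the sham table alone.

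**Figure D2:**
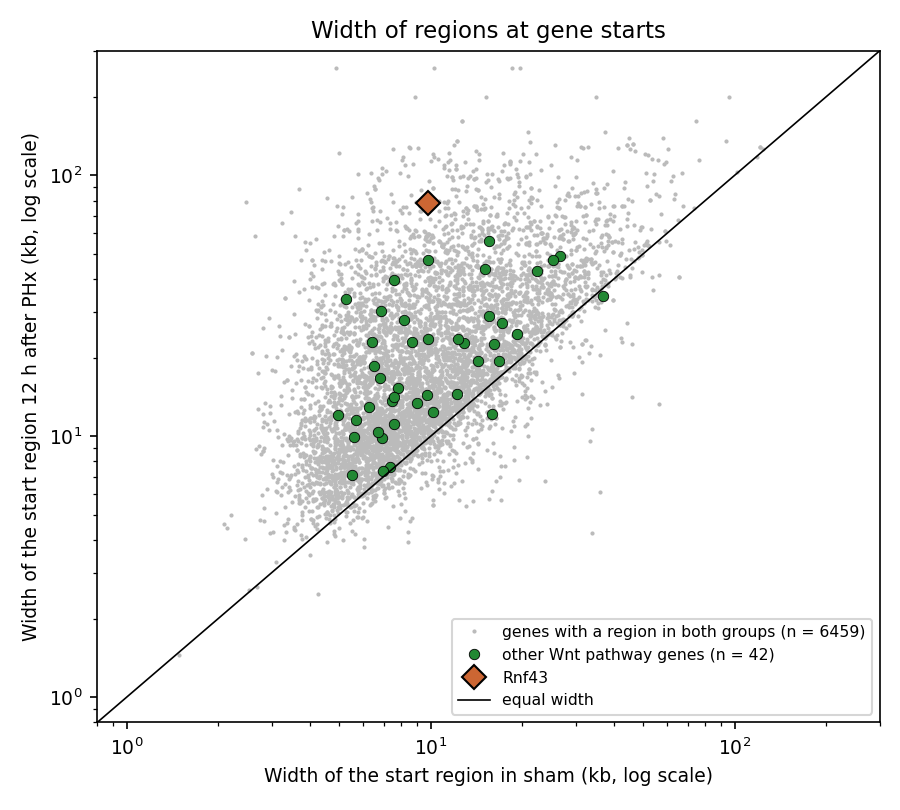
Width of the region at the gene start in sham and 12 h after PHx, in kb on log axes, for 6459 genes marked in both groups (grey), 42 other genes of the Wnt lists (green) and Rnf43 (diamond). Most points lie above the line of equal width, and Rnf43, at 9791 and 78254 bp, lies above all other Wnt genes.

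The RefSeq table holds 2 promoters for Rnf43, at the gene start and near the 1110028F11Rik start. They are shown because those 2 starts had separate regions in sham. The starts stand 36437 bp apart in both builds, but the promoter coordinates themselves cannot be set against a region. The first promoter is at the gene start (chr11:87662837-87663086, GRCm38.p6, plus strand). The other (chr11:87699647-87699896) ends at a start 373 bp downstream of the 1110028F11Rik start in that build. CG dinucleotides are in capitals.
Rnf43 promoter at the gene start: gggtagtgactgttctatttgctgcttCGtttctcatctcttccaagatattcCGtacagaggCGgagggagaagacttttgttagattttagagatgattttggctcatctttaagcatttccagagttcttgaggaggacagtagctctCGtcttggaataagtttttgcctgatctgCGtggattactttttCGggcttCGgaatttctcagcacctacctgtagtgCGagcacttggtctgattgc
Rnf43 internal promoter: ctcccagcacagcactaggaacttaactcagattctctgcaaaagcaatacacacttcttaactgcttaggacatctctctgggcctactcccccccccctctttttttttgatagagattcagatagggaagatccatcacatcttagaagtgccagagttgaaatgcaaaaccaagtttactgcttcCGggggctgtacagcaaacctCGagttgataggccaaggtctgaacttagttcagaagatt
The window at the gene start had 8 CG dinucleotides and the internal window 2, against 24 at Axin2 and a median of 6. Their G+C contents were 44.4% and 45.2%.

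The TCF/LEF core was searched as CTTTGAT and CTTTGAA on both strands. RefSeq promoters were found for 3 of the 4 genes, Axin2, Rnf43 and Tcf7, in 5 windows of 250 bases, and none of them held either word. Of all windows 3.21% held CTTTGAT and 4.46% held CTTTGAA, so most promoters lack both.

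The neighbours of Rnf43 showed the same joining on one side and a sham region without a partner on the other. Upstream, a PHx region of 32853 bp covered 2 sham regions, of 7740 bp at Septin4 and of 9948 bp at Mtmr4. Downstream, a sham region of 26588 bp (87634397 to 87660984) around Mir142, a microRNA of blood cells, had no PHx counterpart. The PHx region over Rnf43 ended 5112 bp before it. In the whole sham list 14.0% of regions had no overlap after PHx. Within 100 kb of the Rnf43 start the covered length was 77593 bp in sham and 111107 bp after PHx, a ratio of 1.43 against a median of 1.51 over all genes. The large width ratio at the start was therefore not matched by the covered length of the locus.

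Znrf3, the partner ligase of Rnf43, is on the minus strand, with its start at 5394847 (NM_001080924.2). In sham a region of 13449 bp (5383471 to 5396919) lay across the start and another of 8144 bp (5359593 to 5367736) lay in the first intron. After PHx a region of 32510 bp (5359284 to 5391793) filled the same part of the intron. It overlapped both sham regions, which summed to 21593 bp, and shared 8323 bp with the one at the start. It stopped 3054 bp inside the gene. The last 5126 bp of the sham start region, which hold the start itself, were thus in no PHx region.

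At Znrf3 the region over the start was missing after PHx while the covered part of the gene was larger. The share of the 168519 bp gene body under regions was 11.6% in sham and 19.3% after PHx. Both lay below the medians over all genes, which were 21.1% and 45.2%. Only 9.72% of the 895 genes marked in sham only had a PHx region within 5 kb of the start, as Znrf3 did, and the median distance was 32664 bp. With a window of 5 kb Znrf3 was marked in both groups. The stretch of 40379 bp from the end of that PHx region to the next one, which holds the start, contained 1 further peak of PHx library 2 and none of library 1. A peak of 1 library alone does not enter the merged list.

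**Figure D3:**
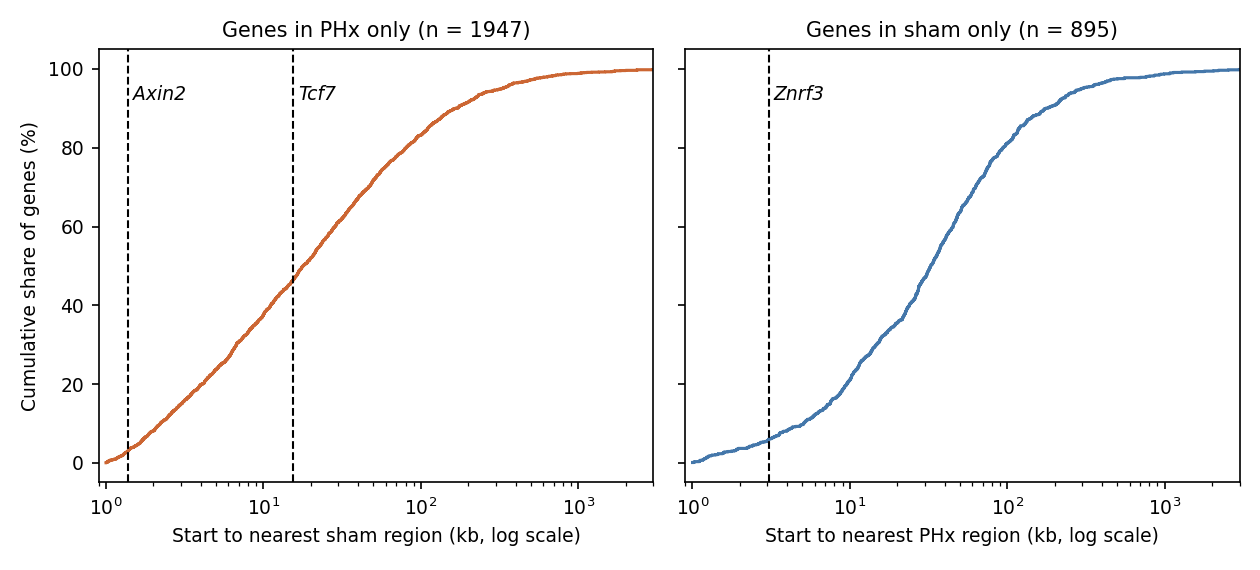
Cumulative share of genes, in percent, by the distance in kb (log axis) from the start to the nearest region of the group in which the gene was not marked, for 1947 genes marked after PHx only (left) and 895 marked in sham only (right). Dashed lines mark Axin2 (1384 bp) and Tcf7 (15414 bp) on the left and Znrf3 (3054 bp) on the right; Axin2 and Znrf3 lie in the lowest part of their curves and Tcf7 near the middle.

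Upstream of Znrf3 lies Xbp1, which encodes a factor of the unfolded protein response. Its sham region of 14599 bp and 2 sham regions at the noncoding gene Gm11963, of 8347 and 12828 bp, all fell under a PHx region of 62778 bp (5432173 to 5494950). The PHx table gives that region to Ccdc117. It was built from 1 peak of library 1 and 3 of library 2. The covered length within 100 kb of the Znrf3 start was 57367 bp in sham and 95185 bp after PHx, a ratio of 1.66.

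Tcf7, on the minus strand with its listed start at 52169374 (XM_030245773.2), had the largest difference between the groups in the covered share of the gene body. In sham it had 1 region of 5960 bp (52148001 to 52153960), 15414 bp inside the gene, which the deposited annotation places in a 5′ UTR. After PHx a region of 39617 bp (52139524 to 52179140) ran from 9766 bp before the start almost to the gene's end. It contained the sham region and was 6.65 times as wide. Regions covered 18.6% of the Tcf7 gene body of 32028 bp in sham and 93.2% after PHx, where the medians over all genes were 21.1% and 45.2%.

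The distance of the nearest sham region from the Tcf7 start was close to the median of 17843 bp among genes marked after PHx only. Tcf7 stayed in that class with windows of 0 to 5 kb, by the authors' own gene assignment, and after PHx regions were narrowed by the ratio of the median widths. The PHx region was built from 1 peak of library 1 and 2 of library 2. In the 73131 bp between the sham region and the next one upstream, which hold the start, there were 1 further peak of sham library 1 and 2 of library 2. The sham libraries thus had peaks there that were not joined into a listed region, and the tables do not say whether any lay at the start.

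Skp1, a subunit of SCF ubiquitin ligases that starts 3′ of Tcf7, had regions in both groups (9100 bp in sham, 14581 bp after PHx), and so did Vdac1 on the other side (21452 bp in sham, 29598 bp after PHx). Between Tcf7 and Vdac1, 2 sham regions of 6892 and 6067 bp had no PHx overlap, as did 14.0% of all sham regions. Both were classed as distal intergenic in the deposited annotation. They lay 14397 and 2854 bp from the nearest PHx region. Within 50 kb of the Tcf7 start, regions covered 15060 bp in sham and 47722 bp after PHx. That ratio of 3.17 was higher than for 90.9% of genes, and over 100 kb it was 1.55. Most of the PHx length within 50 kb was the 39617 bp start region, and the genes were chosen by such regions. The rank is therefore no separate result.

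**Figure D4:**
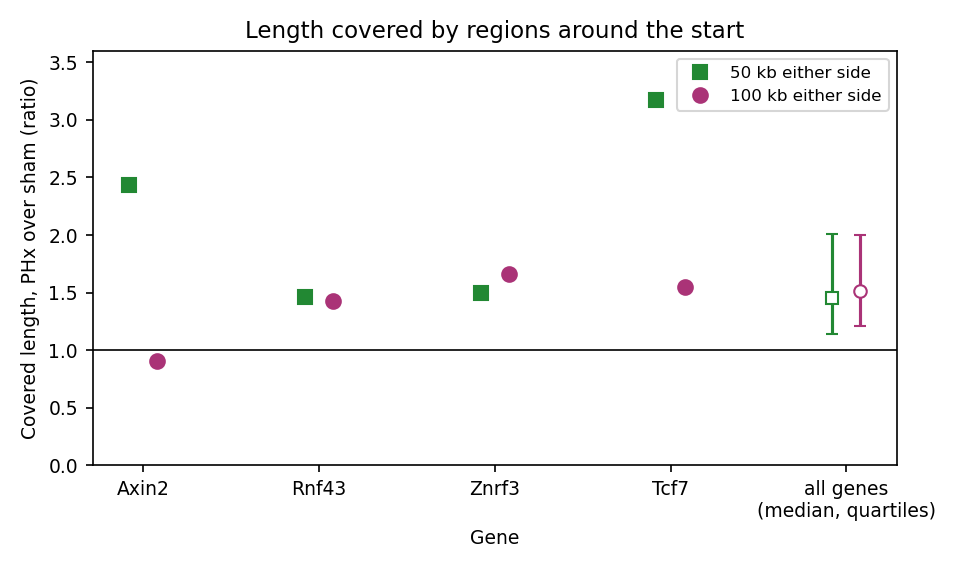
Covered length after PHx over that in sham, as a ratio, within 50 kb (squares) and 100 kb (circles) of the start of each gene; open symbols give the median of all genes with quartile bars. Tcf7 (3.17) and Axin2 (2.43) stand above the upper quartile of all genes at 50 kb and not at 100 kb, where Axin2 falls to 0.902. At 50 kb their PHx length is all or mostly the start region, by which the genes were chosen.

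All 4 genes lie on chromosome 11, which holds 8.06% of the genes with a listed start, at distances of many megabases from each other. None of the 9 PHx regions near them lacked a sham overlap, where 22.5% of all PHx regions did, and 4 of the 9 covered several sham regions, against 15.9% of all. Those 4 lay at Rnf43 and Znrf3, with 2 each, and each PHx region near Axin2 and Tcf7 overlapped 1 sham region. Of the 18 sham regions 4 had no PHx overlap, where 14.0% of all sham regions had none. The median width of these regions was 9446 bp in sham and 32510 bp after PHx. In 4 of the 9 PHx regions library 2 was broken into several peaks where library 1 had 1, which held for 11.5% of all PHx regions. The reverse occurred in 0 of the 9, and in 246 of all 10170 PHx regions. Of the 18 sham regions 3 were split in library 2 alone, against 4.75% of all sham regions. In library 1 alone 1 of the 18 was split, as were 776 of all 11602. The part of this difference between the libraries in the width of PHx regions was not tested.

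Unlisted peaks stood in the stretch around the start at each of the 3 genes marked in one group only. This was common, since 84.2% of all genes marked after PHx only and 83.4% of those marked in sham only had such a peak number of the other group nearby. With these genes set aside none of the 3 calls was left, and Rnf43 alone kept its class.

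Other genes of the pathway that had a listed start were mostly marked in both groups. Of 118 genes in 7 lists by role, 58 had a listed start, which requires that a region of either group names the gene. Of these 58, 42 (72.4%) were marked in both groups, against 59.1% of all genes with a listed start. In neither group were 11 (19.0%), a class that held 14.9% of all genes. After PHx only there were 2, and in sham only 3. The share marked after PHx only was 3.45%, against 17.8% of all genes, and that in sham only 5.17%, against 8.19%. Among the 42, 40 had the wider region after PHx, with a median ratio of 1.85 beside the 1.74 of all genes.

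Ligands and receptors differed in their state. None of the 5 Wnt genes with a listed start (Wnt4, Wnt5a, Wnt5b, Wnt7b and Wnt9b) was marked in either group, where 14.9% of all genes were in neither. Wnt9b, a ligand of the central vein endothelium, came nearest, with a sham region 9274 bp and a PHx region 4627 bp from its start. Of 8 receptor genes with a listed start 7 were marked in both, against 59.1% of all genes. The 7 included the co-receptor genes Lrp5 (22421 and 43129 bp, here and below with sham first) and Lrp6 (9775 and 23679 bp). Fzd1, a Frizzled receptor, was marked after PHx only (8713 bp). At Lgr4, which encodes the R-spondin receptor acting on RNF43 and ZNRF3, the widths were 6885 and 30315 bp.

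The other feedback inhibitors with a listed start were each marked in both groups or in neither. Of all genes, 17.8% were marked after PHx only and 8.19% in sham only. The 4 genes were chosen by their state, so no contrast with them is drawn. Notum, a secreted enzyme that inactivates Wnt, had regions of 12214 and 14531 bp, and Kremen2, a receptor of Dickkopf proteins, 16167 and 22483 bp. Nkd1, Dkk3 and Wif1 were marked in neither group. In the list of the relay and the destruction complex 14 of 17 genes (82.4%) were marked in both, against 59.1% of all genes. Axin1, the constitutive relative of Axin2, was marked in sham only, with a narrow region of 4222 bp and the nearest PHx region 42504 bp away. Csnk1g1 was also in sham only (3541 bp). Tnks, a tankyrase that destabilises axins, was in PHx only (9459 bp). Ctnnb1, which encodes beta-catenin, had 7589 and 39559 bp, a ratio of 5.21.

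**Figure D5:**
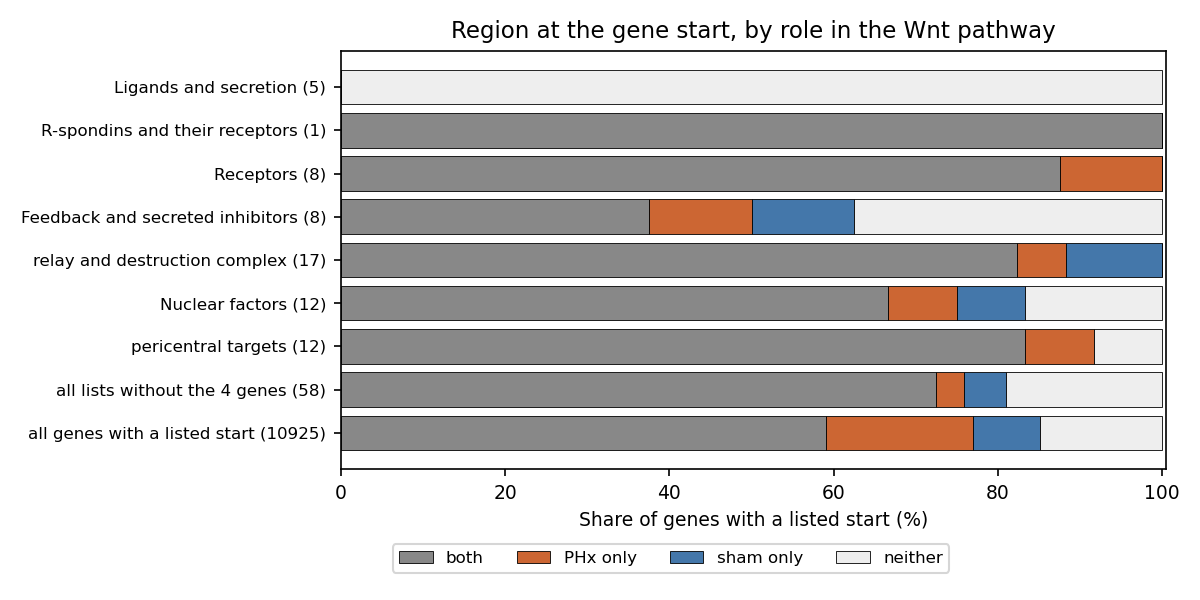
Share in percent of genes with a listed start (number in brackets) by class (marked in both groups, in 1 of them or in neither) and by role in the Wnt pathway, with all lists together without the 4 genes and all 10925 genes. The feedback list has 3 of 8 genes marked in both, or 4 by any listed start. It holds Axin2, Rnf43 and Znrf3, which were chosen by their state, so its share cannot be compared with those of the other roles.

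Among nuclear factors, 2 relatives of Tcf7 had a listed start. Tcf7l1 was marked in both groups with regions of 5281 and 33411 bp, and at a ratio of 6.33 it was the pathway gene nearest to Rnf43 in widening. Ctnnb1 came next, and then the relay gene Dvl1 with a ratio of 4.84. Tcf7l2 was marked in neither at its listed start, with the nearest sham region 82077 bp and the nearest PHx region 15833 bp away. Bcl9, a beta-catenin cofactor, was marked in sham only (5532 bp). Lef1 had no listed start. The pathway genes closest in width to Axin2 and Tcf7 among those marked after PHx only were Tnks and Fzd1, the only 2 in that class. Those closest to Znrf3 among the 3 marked in sham only were Bcl9, Axin1 and Csnk1g1, all with narrower regions.

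Of 12 pericentral targets of the pathway with a listed start 10 were marked in both groups, a class that held 59.1% of all genes. Axin2 was in PHx only and Cyp7a1, an enzyme of bile acid synthesis, in neither. Glul, the glutamine synthetase gene of the cells next to the central vein, had 9739 and 14321 bp, Oat 6248 and 12900 bp, and Tbx3 10194 and 12375 bp. The median ratio of the 10 genes marked in both was 1.52, below that of all genes. Ccnd1 had the narrower region after PHx (36761 and 34313 bp).

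Markers of liver cell types give the setting. Of 6 hepatocyte markers with a listed start 5 were marked in both groups and Cps1 after PHx only. For this and the lists below, 59.1% of all genes were marked in both. Of 7 endothelial markers 5 were marked after PHx only (Pecam1, Cdh5, Erg, Lyve1 and Clec4g) and 2, Stab2 and Vwf, in neither, where 17.8% of all genes were marked after PHx only. All 5 had unlisted peaks of a sham library in the stretch around the start, and the sham region near Lyve1 lay 1298 bp from its start, just outside the 1 kb window. The Kupffer cell list had 2 of 3 in both and Csf1r after PHx only, the stellate list Ecm1 in both and Colec11 after PHx only, and the cholangiocyte gene Sox9 was in both. Csf1r, Cps1 and Colec11 also had unlisted sham peaks in the stretch around the start. Their nearest sham regions lay 1331, 6729 and 7439 bp from it. In whole liver, more cells of a type and more acetylation per cell cannot be told apart. For T lymphocytes, which also use Tcf7, 4 of 20 markers had a listed start: Cd4 and Zap70 were in both, Ccr7 after PHx only (17715 bp) and Themis in neither. None of the 5 B lymphocyte markers had one. The part of these cells in the Tcf7 region was not tested.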

How the data were processed

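H3K27ac CUT&Tag libraries of mouse liver (2 sham, 2 at 12 h after PHx) were analysed from the authors' 2 annotated region tables. Per the submitters' processing notes, Bowtie2, SEACR, ChIPseeker and DiffBind were used with GRCm39 (mm39); no source used here gives roles, versions or thresholds. Deposited columns, per the file headers, hold positions, widths and distances in bp and the peak numbers of both libraries, at least 1 of each per region. Groups came from the treatment label.

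With Python 3.11.15 and pandas 2.3.3, a gene was called marked when a region overlapped its most upstream listed start with 1 kb either side. Regions overlapped when they shared 1 bp. Peak numbers run in genomic order, so numbers missing between neighbouring regions were counted as unlisted peaks. Functions were tested on simulated regions. Promoter sequences, and which genes neighbour each other in GRCm38.p6, came from RefSeq tables of that build.

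The members and the lists (7 of the Wnt pathway, 7 of cell markers) were chosen with earlier results of these data known. Named genes are the 4 members, genes whose region or start falls within their neighbourhood, list members, and at most 3 pathway genes per member nearest in width ratio or width. Windows of 0, 3 and 5 kb, neighbourhoods of 50 and 200 kb, 50% reciprocal overlap, other starts, the authors' gene assignment, narrowed PHx regions and the absence of unlisted peaks were tried as alternatives. Without signal values no test was made.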

Additional observations from a re-analysis of the deposited data

How the results depend on the processing

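The number of the 4 genes marked in both groups, 1 as reported, was 2 with a start window of 3 kb, 3 with 5 kb, 2 with any or with the most downstream listed start, and 0 after PHx regions were narrowed by the ratio of median widths, which by its construction pulls wide regions off a start at their edge. The number marked in one group, 3 as reported, was 2 with the 3 kb window and with any or the most downstream listed start. It was 1 with the 5 kb window and 0 where unlisted peaks of the other group were not allowed. Equal totals could hide changes of class. By the authors' gene assignment Axin2 was in both and Rnf43 in sham only. With narrowed PHx regions Axin2 was in neither and Rnf43 in sham only. For the other pathway genes, the 2 marked after PHx only became 4 by the most downstream start and 0 without unlisted peaks. The 3 marked in sham only became 8 by the authors' gene assignment, 9 with narrowed PHx regions and 0 without unlisted peaks. Sham regions near the 4 genes fell from 18 to 9 within 50 kb. With a reciprocal overlap of 50%, 2 of 18 sham and 2 of 9 PHx regions had a partner. The share of all regions with such a partner was not counted, so these counts do not set the 4 loci apart. The ratio of covered length was 2.43 at Axin2 and 3.17 at Tcf7 within 50 kb. With narrowed PHx regions it was 0.506 at Axin2, 0.802 at Rnf43, 0.931 at Znrf3 and 0.922 at Tcf7, against 0.846 over all genes, as narrowing lowers it everywhere. Where not stated, the cause was not tested. No paired analysis was possible because each group has 1 merged list without values per library, and no library could be left out for the same reason. The depth of the libraries is unknown.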

Other observations

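With any listed start allowed, 16.9% of all genes were marked after PHx only and 7.83% in sham only, beside 17.8% and 8.19% with the most upstream start. The endothelial gene Stab2, marked in neither group by the most upstream of its 3 listed starts, was marked in both when any start was allowed.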
